A study of Mus musculus with 15 samples.

Results

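The genes described here are those named as subunits of the mitochondrial respiratory chain and of the ATP synthase, in lung metastases of mice fed 4 levels of methionine. They were chosen by name: the Ndufa, Ndufb, Ndufc, Ndufs and Ndufv genes of complex I, Sdha to Sdhd of complex II, the Uqcr genes and Cyc1 of complex III, the Cox4i to Cox8 genes of complex IV, the Atp5 genes of complex V, and the mt-Nd, mt-Cytb, mt-Co and mt-Atp genes of the mitochondrial genome. Among 37620 gene IDs, 102 met the rule, after 6 entries marked as pseudogenes by their symbol were left out. Of these, 89 are nuclear and 13 are mitochondrially encoded. Complex I has 47 members, complex II 4, complex III 10, complex IV 22 and complex V 19. A filter on low counts passed 96 members, which are 83 nuclear and all 13 mitochondrial genes. The 6 that did not pass were Ndufa11b, Ndufs6b, Cox6b2, Cox6c2, Cox7b2 and Cox8c, with totals of 0 to 56 counts over the 15 libraries. Ndufa11b, Ndufb4c, Ndufs6b and Cox6c2 met the rule although GENCODE lists them as processed pseudogenes, and Ndufb4c is among the 83 nuclear members that passed the filter. A name that meets the rule does not by itself make a gene a subunit.

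RNA was taken from metastases of B16-F10.1, a mouse melanoma line, in male C57BL/6J mice that were 8 weeks old when 100000 cells were given through the tail vein. After 21 days the mice went for 2 weeks onto a diet that was methionine deficient (0%, n = 3 libraries), restricted (25%, n = 3), adequate (n = 3) or supplemented (300%, n = 6). All groups share the tumour line, the host strain and the sex, and no group was without a tumour. The sequenced tissue holds host lung beside tumour, and in such bulk samples fewer cells of a type and less RNA per cell cannot be told apart. The labels do not tie libraries to single mice, so the p-values below reflect the spread among these libraries, which may be technical.

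The respiratory chain passes electrons from NADH and succinate to oxygen through complexes I to IV, pumping protons across the inner mitochondrial membrane, and complex V uses the proton gradient to make ATP. Most subunits are encoded in the nucleus, transcribed gene by gene and imported, while the core hydrophobic subunits of complexes I, III, IV and V are encoded in mitochondrial DNA. The mitochondrial genes are transcribed together as long precursors from both strands and cut into single messenger RNAs, and complex II is encoded by nuclear genes alone.

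Known regulators of the nuclear genes bind close to their start sites, among them NRF1, ETS factors such as NRF2 (GABP), and YY1. Of the 89 nuclear members, 66 matched a RefSeq promoter (GRCm38.p6) of 250 bases before to 50 bases after the start, and they were compared with the promoters of all 27025 symbols in that set, searching both strands. The NRF1 letters, GCGCA then any base then GCGC (reverse GCGC, any base, TGCGC), were present in 16 of the 66 (24.2%), against 4.78% of all promoters. The ETS letters CCGGAAG (reverse CTTCCGG) were present in 15 (22.7%), against 9.12%, and the YY1 letters AAGATGGC (reverse GCCATCTT) in 8 (12.1%), against 2.88%. The SP1 letters GGGGCGGGG (reverse CCCCGCCCC) were present in 10 (15.2%), against 11.6%, and CCAAT (reverse ATTGG) in 29 (43.9%), against 37.9%. No motif in this list contains another, and a match says only that the letters are there. In the 150 bases before the start, 9 genes with small p-values below were searched for the NRF1, ETS and YY1 letters. Of these, 4 had a match and are shown, and Cox7c is shown as an example of the 5 with none, the others being Atp5l, Atp5g3, Ndufa4 and Ndufv3. Capitals mark the matches to the NRF1 letters in Ndufa8 and Ndufs5, to the ETS letters in Uqcrh, and to both in Atp5h.
Ndufa8, chr2:36049339-36049488, minus strand: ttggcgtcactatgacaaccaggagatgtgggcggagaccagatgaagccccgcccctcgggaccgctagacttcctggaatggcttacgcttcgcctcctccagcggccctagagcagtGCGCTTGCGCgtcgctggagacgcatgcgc
Ndufs5, chr4:123718187-123718336, minus strand: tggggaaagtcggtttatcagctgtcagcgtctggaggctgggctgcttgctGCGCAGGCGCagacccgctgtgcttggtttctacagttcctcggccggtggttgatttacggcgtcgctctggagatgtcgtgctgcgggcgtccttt
Uqcrh, chr4:116075071-116075220, minus strand: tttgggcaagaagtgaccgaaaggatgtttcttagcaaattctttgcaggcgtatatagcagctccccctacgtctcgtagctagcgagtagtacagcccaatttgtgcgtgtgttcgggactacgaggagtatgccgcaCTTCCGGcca
Atp5h, chr11:115419920-115420069, minus strand: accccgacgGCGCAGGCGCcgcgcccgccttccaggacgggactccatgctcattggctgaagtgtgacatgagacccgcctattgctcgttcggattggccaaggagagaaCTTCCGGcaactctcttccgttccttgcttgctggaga
Cox7c, chr13:86046796-86046945, minus strand: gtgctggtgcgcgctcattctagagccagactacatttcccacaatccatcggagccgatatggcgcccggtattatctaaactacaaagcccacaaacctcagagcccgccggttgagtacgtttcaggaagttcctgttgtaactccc

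The mitochondrial genes lie end to end, and some overlap, which touches how their reads can be divided. mt-Atp8 and mt-Atp6 share 43 bases on the same strand, mt-Nd4l and mt-Nd4 share 7, mt-Atp6 and mt-Co3 share 1, and mt-Nd5 and mt-Nd6 share 14 on opposite strands. The mt-Atp8 transcript (GENCODE M21, GRCm38, chrM:7766-7969, plus strand, 204 bases) is shown with the bases it shares with mt-Atp6 in capitals.
mt-Atp8: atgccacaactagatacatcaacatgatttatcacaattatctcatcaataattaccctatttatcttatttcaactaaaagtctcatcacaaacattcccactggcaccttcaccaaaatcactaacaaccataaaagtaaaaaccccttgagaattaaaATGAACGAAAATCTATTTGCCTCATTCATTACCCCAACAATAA

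Total counts ran from 13107679 to 29994264 per library. In all, 3 libraries stood apart, and each result below is read with them in view. Adequate replicate 1 had a scaling factor (TMM) of 0.69, against 0.945 to 1.16 in the other 14, and small structural RNAs held 8.09% of its counts, against 3.35% to 4.95%. Deficient replicate 3 had the highest alveolar type 2 marker sum, 7770 CPM (counts scaled to library size), against 261 to 2328 CPM elsewhere, and the lowest melanocyte marker sum, 18287 CPM, against 21946 to 35273 CPM. Supplemented replicate 5 had a muscle marker sum of 1956 CPM, against 3.84 to 47.8 CPM elsewhere. Melanocyte markers were present in every library, with all 13 counted in each diet.

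On the deposited TPM scale, which divides by gene length and allows levels to be compared between genes, the 2 most abundant members by median were mitochondrial. mt-Co3, a core subunit of cytochrome c oxidase, had a median of 1326 TPM over the 15 libraries (396 to 1778), and mt-Co1, the catalytic subunit that binds haem and copper, had 1045 TPM (119 to 1625). The highest nuclear member was Atp5b, the catalytic beta subunit of ATP synthase, with 812 TPM (391 to 1331). Within each complex the nuclear members that passed the filter spanned a wide range of levels, and the highest and lowest of them are given here. In complex I, Ndufa4 was highest among nuclear members with 145 TPM, and Ndufa4l2, its paralogue known from hypoxic cells, was lowest with 2.50 TPM. Ndufa4 is counted by its name with complex I, although it is known as a subunit that associates with complex IV. In complex II, Sdhb, the iron-sulphur subunit, had 139.9 TPM and Sdha, the flavoprotein that oxidises succinate, had 26.9 TPM. In complex III, Uqcr11 had 117 TPM and the core protein Uqcrc2 had 24.6 TPM, beside 111 TPM for mt-Cytb, the cytochrome b subunit. In complex IV, Cox6b1 had 414 TPM and Cox4i2, known as the lung isoform of subunit IV, had 1.03 TPM. In complex V, Atp5s had the lowest median, 1.17 TPM. Among mitochondrial complex I genes, mt-Nd3 had 522 TPM and mt-Nd1 259 TPM, while mt-Nd6, the gene on the other strand of mitochondrial DNA, had 23.7 TPM.

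Mitochondrial genes made up 36.1%, 38.2% and 52.2% of respiratory chain TPM in the deficient libraries, 44.0%, 38.8% and 37.1% in the restricted libraries, and 21.2%, 42.5% and 38.9% in the adequate libraries. In the supplemented libraries this share was 22.4% at the lowest, 41.7% at the median and 48.2% at the highest. The low ends were adequate replicate 1 and supplemented replicate 5, the high end was deficient replicate 3, and the 4 diets overlapped.

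**Figure D1:**
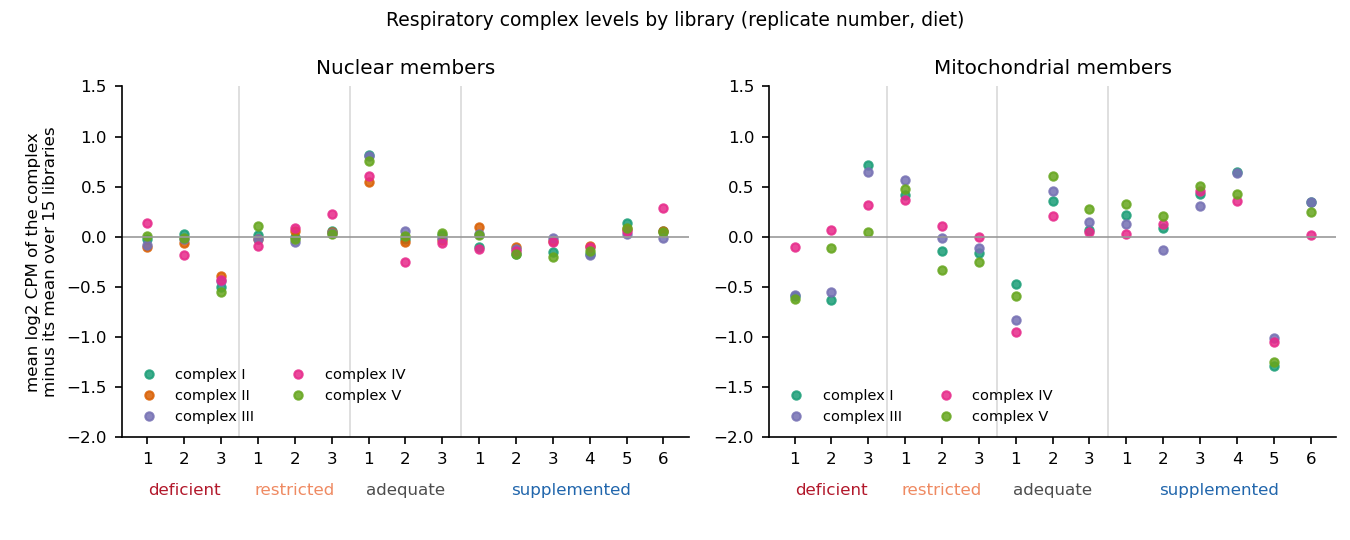
Mean log2 CPM of the tested members of each complex in every library, minus the mean over the 15 libraries, with nuclear members in the first panel and mitochondrial members in the second. Adequate replicate 1 is the highest library for the nuclear members, and it and supplemented replicate 5 are low in every complex for the mitochondrial members.

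The mean log2 CPM of the 83 nuclear members was 5.88, 5.84 and 5.39 in deficient libraries, 5.88, 5.88 and 5.95 in restricted libraries, 6.62, 5.82 and 5.87 in adequate libraries, and 5.72 to 5.97 with a median of 5.78 in supplemented libraries. Adequate replicate 1 was the highest of the 15 and deficient replicate 3 the lowest, and the other 13 lay between 5.72 and 5.97. For the 13 mitochondrial genes the mean log2 CPM was 7.11, 7.199 and 8.10 in deficient libraries, 8.01, 7.48 and 7.45 in restricted libraries, 6.95, 7.95 and 7.68 in adequate libraries, and 6.38 to 8.13 with a median of 7.80 in supplemented libraries. Here deficient replicate 3 was near the top of the range and adequate replicate 1 near the bottom, the opposite of their places among the nuclear genes. The plot of mean levels by complex and library shows this for complexes I, III and IV, while in complex V the mitochondrial mean of deficient replicate 3, 6.62, was in the middle of the 15 libraries.

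Across libraries the mitochondrial genes moved together, with a mean pairwise Pearson correlation of 0.74 over 15 libraries. The nuclear members had 0.57 among themselves and -0.34 with the mitochondrial genes, and pairs of all genes tested averaged 0.00257. These points share libraries and scaling factors, and they are a description. Without adequate replicate 1, supplemented replicate 5 and deficient replicate 3, the mean over the 12 other libraries was 0.63 among mitochondrial genes, 0.16 among nuclear members and -0.12 between them. The nuclear value thus depended on the 3 libraries more than the mitochondrial one did. By complex, over 15 libraries, the nuclear mean was 0.63 in complex I, 0.34 in complex II, 0.65 in complex III, 0.38 in complex IV and 0.65 in complex V.

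The first question was whether the nuclear subunit genes differed in metastases of mice fed the methionine deficient diet, against the adequate diet. No member was called by edgeR's quasi-likelihood test at an adjusted p under 0.05 (0 of 96, against 0.00625% of the 16001 genes tested), and limma-voom also called 0. DESeq2 called 7 members, all lower in deficient libraries, against 0.994% of genes called lower: Ndufa8, Ndufs5 and Ndufv1 of complex I, Uqcrh of complex III, Cox4i1 of complex IV, and Atp5g3 and Atp5mpl of complex V. By edgeR, 78 of 83 nuclear members had a log2 fold change below 0, against 47.1% of all genes. In the same fit 38 of 83 were lower at an unadjusted p under 0.05, against 5.84%, and in 24 every deficient library lay below every adequate library, against 7.96%. The nuclear median was -0.48, against 0.04 over all genes, whereas on the log2(TPM + 1) scale it was 0.01, against 0.26 over all genes.

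On the count scale, the lower values were spread over the complexes. The median log2 fold change, deficient over adequate, was -0.46 in complex I, with 37 of 38 members below 0. It was -0.40 in complex II (3 of 4), -0.48 in complex III (9 of 9), -0.49 in complex IV (13 of 15) and -0.47 in complex V (16 of 17). The 13 mitochondrial genes had a median of -0.03 and 8 below 0, and none had an unadjusted p under 0.05. Without adequate replicate 1 their median was -0.36, with 9 of 13 below 0.

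Atp5mpl, a small membrane subunit of ATP synthase, had 23.8, 20.5 and 9.59 CPM in deficient libraries, against 55.7, 35.6 and 35.2 CPM in adequate libraries. Restricted libraries had 28.03, 22.2 and 23.3 CPM, and supplemented libraries had 18.1 CPM at the lowest, 25.1 CPM at the median and 26.9 CPM at the highest. The 3 adequate libraries were above all 12 others. The log2 fold change, deficient over adequate, was -1.23 (SE 0.28), with an edgeR adjusted p of 0.149 and a DESeq2 adjusted p of 0.00644, and it was -0.98 without adequate replicate 1. Leaving out each library in turn, it ranged from -1.52 to -0.93.

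Ndufa8, an accessory subunit of complex I, had 25.3, 29.9 and 23.8 CPM in deficient libraries, against 50.7, 35.9 and 38.2 CPM in adequate libraries. It had 32.3, 29.8 and 34.2 CPM in restricted libraries and 26.3 to 33.0 CPM with a median of 30.3 CPM in supplemented libraries. Adequate libraries were again above all others, and the log2 fold change, deficient over adequate, was -0.66 (SE 0.17, edgeR adjusted p = 0.149, DESeq2 adjusted p = 0.0204), or -0.50 without adequate replicate 1. Uqcrh, the hinge protein of complex III, had 79.9, 81.5 and 67.9 CPM in deficient libraries, against 250.3, 111 and 100.2 CPM in adequate libraries. The groups did not overlap, but adequate replicate 1 was more than 2 times the next library, and the log2 fold change was -1.01 (SE 0.27, edgeR adjusted p = 0.156) with it and -0.48 without it. Ndufs5, an accessory subunit of complex I, had 16.6, 20.02 and 10.8 CPM in deficient libraries, against 53.9, 21.7 and 24.7 CPM in adequate libraries. Its log2 fold change was -1.08 (SE 0.31, edgeR adjusted p = 0.166), and -0.56 without adequate replicate 1.

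Subunit c, the ring of ATP synthase that turns with proton flow, is encoded by Atp5g1, Atp5g2 and Atp5g3. Atp5g3 had 136, 152 and 87.2 CPM in deficient libraries and 186, 172 and 207 CPM in restricted libraries. Adequate libraries had 276, 215 and 220.0 CPM, and supplemented libraries had 127 to 224 CPM with a median of 193 CPM. Every adequate library was above every deficient one, while the supplemented libraries overlapped both. The log2 fold change, deficient over adequate, was -0.92 (SE 0.24, edgeR adjusted p = 0.150), and -0.81 without adequate replicate 1. Leaving out each library in turn, it ranged from -1.09 to -0.72. Atp5g2 had 190.1, 183 and 138 CPM in deficient libraries, 254, 239 and 219 CPM in restricted libraries, 248.7, 218 and 202 CPM in adequate libraries, and 194 to 258 CPM with a median of 216 CPM in supplemented libraries. The deficient libraries were below all 12 others. Its log2 fold change was -0.39 for deficient over adequate (edgeR adjusted p = 0.284), -0.48 for deficient over restricted (adjusted p = 0.649) and -0.38 for deficient over supplemented (adjusted p = 0.870), so it was not called in any of them. Atp5g1 had -0.34, -0.07 and -0.05 in the same 3 comparisons, with overlapping libraries.

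**Figure D2:**
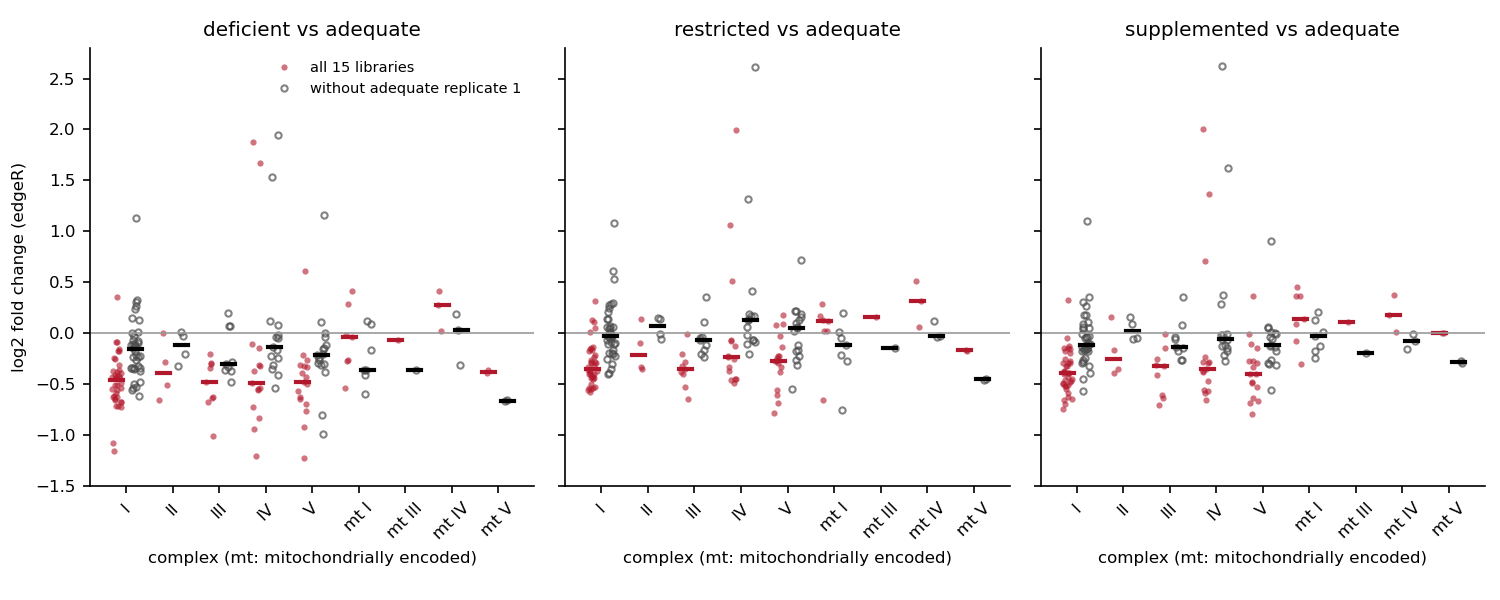
Log2 fold change (edgeR) of each tested member by complex, for deficient, restricted and supplemented against adequate libraries. Filled points use all 15 libraries, open points leave out adequate replicate 1, and bars are medians. The nuclear medians against adequate were -0.48, -0.30 and -0.38 with all libraries and -0.20, -0.01 and -0.09 without adequate replicate 1. On the log2(TPM + 1) scale with all libraries they were 0.01, 0.22 and 0.29, each below the median of all genes on that scale.

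The restricted and supplemented diets were set against the same 3 adequate libraries, so these comparisons are not separate evidence. In restricted over adequate, edgeR, DESeq2 and limma-voom called 0 of 96 members (edgeR called 0% of all genes). By edgeR, 11 nuclear members were lower at an unadjusted p under 0.05, against 4.31% of all genes, and 14 did not overlap and were lower, against 8.27%. The nuclear median was -0.30 with 71 of 83 below 0, against 49.6% of genes, whereas it was 0.22 on the log2(TPM + 1) scale, where all genes had 0.26. In supplemented over adequate, edgeR and limma-voom called 0 of 96 (edgeR 0% of genes), and DESeq2 called Ndufv3, against 0.325% of genes called lower. By edgeR, 34 nuclear members were lower at an unadjusted p under 0.05, against 4.92%, and 10 did not overlap and were lower, against 2.24%. The nuclear median was -0.38 with 77 of 83 below 0, against 47.1% of genes, and 0.29 on the log2(TPM + 1) scale, where all genes had 0.36.

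By complex, restricted over adequate gave nuclear medians of -0.35 in complex I, -0.21 in complex II, -0.35 in complex III, -0.23 in complex IV and -0.27 in complex V. Supplemented over adequate gave -0.39, -0.26, -0.32, -0.35 and -0.40 in the same order, so that every complex was below 0 on this scale with all 15 libraries. The mitochondrial medians were 0.12 in restricted over adequate and 0.11 in supplemented over adequate, with no gene under an unadjusted p of 0.05, and they changed sign to -0.11 and -0.13 without adequate replicate 1, each with 10 of 13 genes below 0.

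Ndufv3, a subunit of the NADH-oxidising arm of complex I, had the smallest p-value in supplemented over adequate. It had 78.8 CPM at the lowest, 84.9 CPM at the median and 91.5 CPM at the highest in supplemented libraries, against 152, 128 and 123 CPM in adequate libraries. Restricted libraries had 112, 110.3 and 108 CPM, and deficient libraries had 95.5, 110.1 and 55.9 CPM. The supplemented libraries were narrow in range and below every restricted and adequate library. The log2 fold change, supplemented over adequate, was -0.65 (SE 0.17, edgeR adjusted p = 0.288, DESeq2 adjusted p = 0.0200), and -0.57 without adequate replicate 1. Restricted over supplemented gave 0.37 (SE 0.17, edgeR adjusted p = 1).

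Atp5h, subunit d of the peripheral stalk of ATP synthase, had 52.7 to 67.9 CPM with a median of 62.5 CPM in supplemented libraries, against 138, 69.9 and 79.6 CPM in adequate libraries. Its log2 fold change was -0.66 (SE 0.19, edgeR adjusted p = 0.322) in supplemented over adequate, and -0.32 without adequate replicate 1, which held the value of 138 CPM. In restricted over adequate, Atp5l, subunit g of ATP synthase, had the smallest p-value, at -0.68 on the log2 scale (SE 0.24, edgeR adjusted p = 0.411) and -0.31 without adequate replicate 1. Cox7c, a small subunit of complex IV, had 24.5 to 31.8 CPM with a median of 27.3 CPM in supplemented libraries and 64.7, 32.8 and 33.4 CPM in adequate libraries. It had 36.6, 31.0 and 21.5 CPM in deficient and 29.3, 33.5 and 33.2 CPM in restricted libraries. Apart from adequate replicate 1, the adequate libraries were within the range of the deficient ones. Its log2 fold change was -0.66 in supplemented over adequate (SE 0.21, edgeR adjusted p = 0.355), and -0.28 without that library. Ndufa4 had 87.8 to 129 CPM with a median of 104 CPM in supplemented libraries, against 229, 132 and 159 CPM in adequate libraries, which gave -0.69 on the log2 scale (SE 0.21, edgeR adjusted p = 0.335), and -0.45 without adequate replicate 1.

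Adequate replicate 1 decided the size of these values. Without it the nuclear median was -0.20 in deficient over adequate, with 64 of 83 below 0 (46.1% of genes) and 12 lower at an unadjusted p under 0.05 (5.25% of genes). It was -0.01 in restricted over adequate, with 44 of 83 below 0 (50.5%) and 0 lower at that p by edgeR (4.12%). It was -0.09 in supplemented over adequate, with 59 of 83 below 0 (47.5%) and 4 lower (3.56%). In deficient over adequate both counts without it were thus above the share of all genes, and in restricted over adequate the count at that p was below it. No member was called by edgeR in any of these fits. The fits still include deficient replicate 3, whose nuclear mean log2 CPM was 5.39. Deficient replicates 1 and 2 had 5.88 and 5.84, beside 5.82 and 5.87 in adequate replicates 2 and 3.

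Within the adequate group, adequate replicate 1 minus the mean of the other 2 libraries was above 0 for 82 of 83 nuclear members on the log2 CPM scale, with a median of 0.79, against 0.02 over 16001 genes. It was below 0 for 12 of 13 mitochondrial genes, with a median of -1.07, and mt-Nd3 was the exception. The difference went with gene length: the Spearman correlation across genes was -0.41 over all genes tested and -0.38 over the nuclear members, as a description, since genes of a library are not independent. The nuclear members are short, with a median length of 690 bases against 2270 for all genes. Genes of up to 500 bases had a median difference of 0.93 over all genes and 0.89 over 11 nuclear members, and from 600 to 800 bases 0.68 and 0.79. From 1200 to 2000 bases the medians were 0.26 over all genes and 0.64 over 13 nuclear members. Nuclear members were thus close to other genes in the shortest band and above them in the longer bands. The mitochondrial genes are also short, with a median of 784 bases, and lay on the other side of 0. The part of length and of structural RNA in the comparisons with the adequate diet was not tested.

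**Figure D3:**
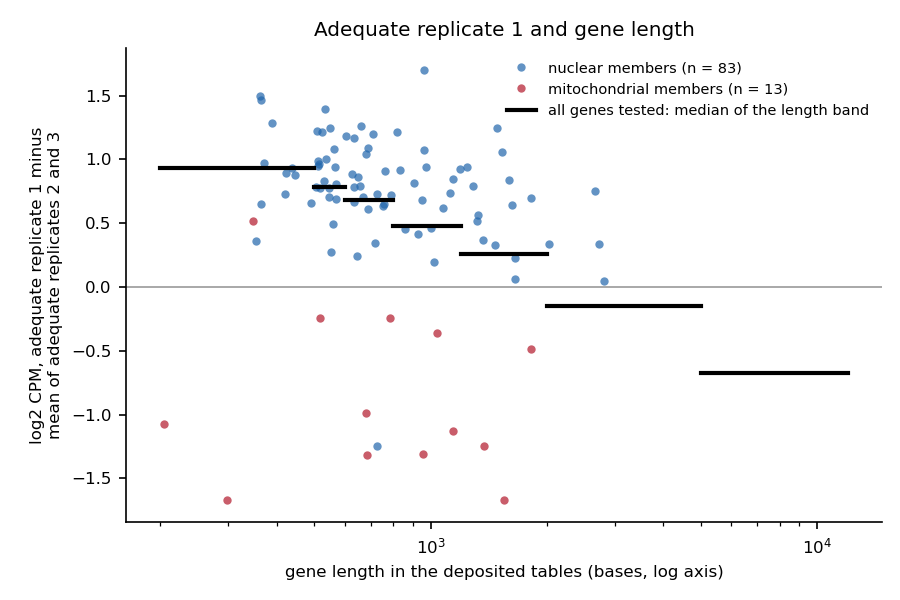
Difference in log2 CPM between adequate replicate 1 and the mean of adequate replicates 2 and 3 for each tested member, against gene length in bases on a log axis. Black bars are the medians of all genes tested in bands of length, and the outer bands, which have no outer limit, are drawn with arbitrary ends. Of the nuclear members 82 of 83 lie above 0 (median 0.79), and 12 of 13 mitochondrial genes lie below 0 (median -1.07).

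In several other lists of mitochondrial and translation genes most members were also below 0 against the adequate diet, and edgeR called none of them. In deficient over adequate, 70 of 77 mitochondrial ribosomal proteins were below 0 (median -0.37), 75 of 79 cytosolic ribosomal proteins (median -0.40) and 35 of 37 small structural RNAs (median -1.16). These lists also hold short genes. Among lists closer to the respiratory chain, 13 of 16 complex I assembly factors were below 0 (median -0.26), with Ndufaf4 at -1.01 (edgeR adjusted p = 0.175). Of 30 assembly factors of complexes II to V, 24 were below 0 (median -0.28). Of 17 enzymes of the citric acid cycle, 15 were below 0 (median -0.37) and 8 were lower at an unadjusted p under 0.05 (5.84% of all genes), led by Suclg1, a subunit of succinyl-CoA ligase, at -0.74 (edgeR adjusted p = 0.157). Of 24 glycolysis and hypoxia genes, 21 were below 0 (median -0.40). Genes of mitochondrial DNA expression had 18 of 26 below 0 (median -0.19), with Tefm, the mitochondrial transcription elongation factor, at -1.11 (edgeR adjusted p = 0.180). The regulators of respiratory genes had 5 of 11 below 0 (median 0.06), with Esrra, a nuclear receptor, at -0.58 (edgeR adjusted p = 0.225). Coenzyme Q synthesis genes had 7 of 11 below 0 (median -0.14). In restricted over adequate the medians were -0.10 for complex I assembly, -0.19 for the citric acid cycle, -0.25 for mitochondrial ribosomal proteins and -0.35 for cytosolic ribosomal proteins. In supplemented over adequate they were -0.16 for complex I assembly, -0.18 for the citric acid cycle, -0.31 for mitochondrial ribosomal proteins and -0.41 for cytosolic ribosomal proteins. These values use all 15 libraries. In adequate and then deficient libraries, mitochondrial ribosomal proteins summed to 3741, 2183 and 2381 CPM and to 2303, 2507 and 1635 CPM. Cytosolic ribosomal proteins summed to 38664, 22663 and 22153 CPM and to 22343, 28229 and 15504 CPM. Complex I assembly factors summed to 422, 242 and 270 CPM and to 277, 282 and 217 CPM. Adequate replicate 1 was highest in these, but not for glycolysis and hypoxia genes (23517, 24457 and 25719 CPM in adequate libraries). The deficient libraries had 21038, 24573 and 9384 CPM of glycolysis and hypoxia genes, so that replicate 2 lay within the adequate range and replicate 3 was far below.

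Markers of host cells were also higher against the adequate diet for some cell types, although edgeR called none of them. All 12 endothelial markers were higher in deficient over adequate at an unadjusted p under 0.05 (9.29% of all genes; smallest edgeR adjusted p 0.149), with summed levels of 230 to 1739 CPM in deficient libraries and 140.0 to 193 CPM in adequate libraries, and none of the 12 was at 0 in either group. In restricted libraries they summed to 246 to 349 CPM, and 2 of 12 were higher over adequate at that p (4.87% of all genes). Fibroblast and pericyte markers summed to 820 to 1151 CPM in deficient and 635 to 1056 CPM in restricted libraries, against 378 to 552 CPM in adequate libraries, and 7 of 12 were higher at that p in each comparison. In supplemented libraries the sums were 134 to 487 CPM for endothelial and 496 to 1365 CPM for fibroblast and pericyte markers. There 12 of 12 and 11 of 12 were above 0 over adequate (medians 0.99 and 0.68), while 47.1% of all genes were below 0. The adequate libraries were thus low against each of the other diets for these 2 lists. Of 13 macrophage markers 5 were higher at that p in deficient over adequate, with sums of 483 to 2280.0 CPM in deficient and 254 to 675 CPM in adequate libraries. All markers of these lists had counts in each group. In each of these lists the highest deficient sum was that of replicate 3. Deficient replicates 1 and 2 had 317 and 230 CPM of endothelial markers and 820 and 894 CPM of fibroblast and pericyte markers. Their macrophage marker sums were 776 and 483 CPM. Alveolar type 2 markers summed to 414 to 7770 CPM in deficient libraries and 546 to 1568 CPM in adequate libraries, which overlap, and 1 of 12 was higher at that p. Erythroid markers summed to 794 to 1169 CPM in adequate, 186 to 469 CPM in restricted, 258 to 1382 CPM in supplemented and 340 to 4419 CPM in deficient libraries. All 6 tested were below 0 in restricted and in supplemented over adequate, and above 0 in deficient over adequate. In restricted over adequate 2 were lower at that p (4.31% of all genes). With the alveolar type 2 level as a covariate the nuclear median in deficient over adequate was -0.47. Adequate replicate 1, without which the median in the fit with no covariate was -0.20, had an alveolar type 2 sum of 875 CPM, inside the adequate range. The covariate therefore does not adjust for that library, and this fit does not decide the part of lung tissue. The part of endothelial cells, fibroblasts and macrophages was not tested.

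The other 3 comparisons do not use the adequate libraries. In deficient over restricted, edgeR called 0 of 96 members (0% of genes), limma-voom and DESeq2 also called 0, and 3 nuclear members were lower at an unadjusted p under 0.05 (2.28% of genes). The nuclear median was -0.18, with 69 of 83 below 0 against 48% of genes, and 16 members did not overlap and were lower (6.38% of genes). Without deficient replicate 3 the median was -0.04. In deficient over supplemented, edgeR, limma-voom and DESeq2 called 0 (edgeR 0% of genes), and by edgeR 3 nuclear members were lower at an unadjusted p under 0.05 (1.76% of genes). The median was -0.09 with 60 of 83 below 0 (47.5% of genes), 3 members did not overlap and were lower (0.9% of genes), and without deficient replicate 3 the median was 0.04. Ndufa7, an accessory subunit of complex I, went the other way, with 83.7, 89.6 and 78.0 CPM in deficient libraries, against 50.7 to 69.6 CPM with a median of 67.1 CPM in supplemented libraries. The groups did not overlap (1.01% of genes were higher without overlap), and the log2 fold change was 0.42 (SE 0.20, edgeR adjusted p = 0.870). In restricted over supplemented, edgeR, limma-voom and DESeq2 called 0 (edgeR 0% of genes), 1 nuclear member, Ndufv3, was higher at an unadjusted p under 0.05 by edgeR (1.08% of genes), and the median was 0.06 with 26 of 83 below 0 (51.7% of genes). Here 6 members did not overlap and were higher (1.32% of genes): Ndufv3, Ndufa6, Ndufa7, Ndufa12, Cox6b1 and Atp5j2. A joint test of any difference among the 4 diets called 0 members by edgeR (0.00625% of genes), with 20 of 96 under an unadjusted p of 0.05 (9.47% of genes), and DESeq2 called 2 (1.69% of genes), Atp5mpl (adjusted p = 0.0230) and Ndufv3 (adjusted p = 0.0339).

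Among the mitochondrial genes, the deficient group was split. mt-Nd1, a core subunit of complex I, had 271, 240.2 and 463 CPM in deficient libraries and 519.8, 386 and 375 CPM in restricted libraries. Adequate libraries had 197, 505 and 472 CPM, and supplemented libraries had 166 to 545 CPM with a median of 468 CPM. Deficient replicates 1 and 2 were below all other libraries but adequate replicate 1 and supplemented replicate 5, while deficient replicate 3 was near the middle of the 15. mt-Nd4 had 98.4, 126 and 409.6 CPM in deficient libraries, 242, 172 and 163 CPM in restricted libraries, 82.2, 213 and 179 CPM in adequate libraries, and 66.6 to 333 CPM with a median of 214 CPM in supplemented libraries. Its highest library of the 15 was deficient replicate 3, and the same 4 libraries were the lowest. mt-Cytb, the cytochrome b of complex III, had 151, 155 and 354 CPM in deficient libraries, against 335, 225 and 209 CPM in restricted libraries. Adequate libraries had 128, 310.2 and 251 CPM and supplemented libraries 112 to 352 CPM.

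**Figure D4:**
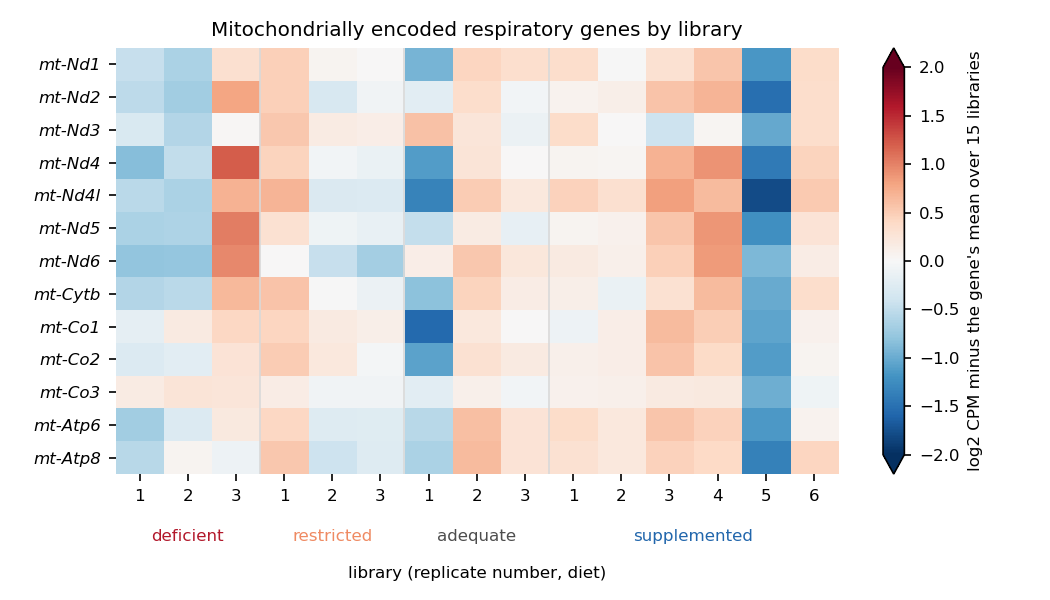
Log2 CPM of the 13 mitochondrially encoded genes in each library, minus the mean of the gene over 15 libraries, with libraries ordered by diet and replicate. Deficient replicates 1 and 2, adequate replicate 1 and supplemented replicate 5 are low for most genes, and deficient replicate 3 is high for the complex I genes mt-Nd4, mt-Nd5 and mt-Nd6.

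The complex IV genes of the mitochondrial genome varied less between the deficient libraries. mt-Co1 had 2611, 3320.4 and 3928 CPM in deficient libraries, 3987, 3355 and 3194 CPM in restricted libraries, 1002, 3417 and 2972 CPM in adequate libraries, and 1411 to 4561 CPM with a median of 3176 CPM in supplemented libraries. Adequate replicate 1 and supplemented replicate 5 were the lowest. mt-Co3 had 2006, 2131 and 2125 CPM in deficient libraries, against 1991, 1706 and 1698 CPM in restricted and 1539, 1924 and 1721 CPM in adequate libraries. Supplemented libraries had 908 to 2039 CPM with a median of 1907 CPM. The deficient libraries were above all restricted and adequate ones but overlapped the supplemented ones, with log2 fold changes of 0.22 over restricted and 0.27 over adequate that were not called (4.71% and 7.91% of genes were higher without overlap). The mean log2 CPM of the mitochondrial complex I genes minus that of the mitochondrial complex IV genes was -4.34, -4.55 and -3.45 in deficient libraries, -3.80, -4.09 and -4.01 in restricted libraries, -3.37, -3.70 and -3.83 in adequate libraries, and -4.08 to -3.52 in supplemented libraries. Deficient replicates 1 and 2 had the lowest differences of the 15 libraries.

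In deficient over adequate with all libraries, log2 fold changes of the 13 mitochondrial genes ran from -0.53 in mt-Nd3 to 0.42 in mt-Nd4. Deficient replicate 3 moved these values: without it the mitochondrial median was -0.57 in deficient over adequate (11 of 13 below 0), -0.66 in deficient over restricted (12 of 13) and -0.69 in deficient over supplemented (12 of 13), where it had been -0.03, -0.14 and -0.17. All genes tested were below 0 in 50.1%, 49.7% and 52.7% of cases in those fits. No gene was called by edgeR, and 1, 1 and 2 mitochondrial genes were lower at an unadjusted p under 0.05, against 3.04%, 1.24% and 1.38% of genes. Deficient replicate 3 is the library with the highest alveolar type 2 marker sum. With that marker level as a covariate and all 15 libraries, the mitochondrial medians were -0.42 in deficient over adequate, -0.65 in deficient over restricted (13 of 13 below 0) and -0.43 in deficient over supplemented, and edgeR called 0. The same library holds the extreme of the covariate, so this fit and the one without that library are not separate results. The part of lung content in the mitochondrial values was not tested.

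Without adequate replicate 1, supplemented replicate 5 and deficient replicate 3 together, the mitochondrial median was -0.78 in deficient over adequate, -0.64 in deficient over restricted and -0.84 in deficient over supplemented. Of the 13 genes 12 were below 0 in each, and 10, 8 and 11 had an unadjusted p under 0.05, against 5.56%, 2.63% and 3.59% of genes. The 13 genes moved together in these libraries (mean pairwise correlation 0.63, against 0.0016 over all genes tested). Their counts are therefore not 13 separate results. The smallest adjusted p by edgeR was 0.0999, for mt-Nd1 in deficient over adequate (log2 fold change -0.94), so no gene was called. The members differed: in deficient over supplemented mt-Nd6 had -1.16 and mt-Nd4 -1.13, while mt-Co1 had -0.27 and mt-Co3 0.11. The nuclear medians in the same fits were -0.05, -0.03 and 0.07. In this fit the deficient group has 2 libraries, and the 3 libraries were left out with their values known, so these values describe the 12 others.

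mt-Nd3, a small core subunit of complex I, and mt-Co3 followed the other mitochondrial genes least. Over 15 libraries the mean correlation with the other 12 was 0.41 for mt-Nd3 and 0.64 for mt-Co3, against 0.66 to 0.84 for the rest. Without adequate replicate 1, supplemented replicate 5 and deficient replicate 3 it was 0.32 for mt-Nd3 and 0.028 for mt-Co3, against 0.54 to 0.77 for the rest, so the value of mt-Co3 rested on those libraries. mt-Nd3 had 188, 155 and 238 CPM in deficient libraries, 338, 261 and 257 CPM in restricted libraries, 351, 277 and 216 CPM in adequate libraries, and 115 to 303 CPM with a median of 239 CPM in supplemented libraries. Its highest library was adequate replicate 1, where most mitochondrial genes were low. The CPM of mt-Nd3 over that of mt-Nd1 was 1.78 in that library and 0.38 to 0.70 in the other 14. The CPM of mt-Co3 over that of mt-Co1 was 1.54 there and 0.45 to 0.77 elsewhere. The value of mt-Nd4l is uncertain, since its counts equalled those of another ID (Gm10222) in every library within 0.01 counts, as did those of Ndufs6b with a further ID, and the strand setting behind the mt-Nd5 and mt-Nd6 counts is not given in the sources used here.

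Several complex IV subunits have tissue isoforms, and these were low and variable beside their partners. Cox6a2, Cox7a1 and Cox8b, known from heart and skeletal muscle, had medians of 3.34, 5.24 and 1.04 TPM, while their broadly expressed partners Cox6a1, Cox7a2 and Cox8a had 153, 52.9 and 246 TPM. Cox4i2 had 1.03 TPM and its partner Cox4i1 had 223 TPM. Cox8b, Cox6a2, Cox4i2 and Cox7a1 had the largest standard deviations of log2 CPM among nuclear members, 1.63, 1.16, 1.08 and 0.98. The smallest were 0.12 for Sdha, 0.18 for Ndufs1, the large iron-sulphur subunit of complex I, and 0.19 for Uqcrc1, a core protein of complex III. Sdha stayed between 131 and 173 CPM in every library.

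**Figure D5:**
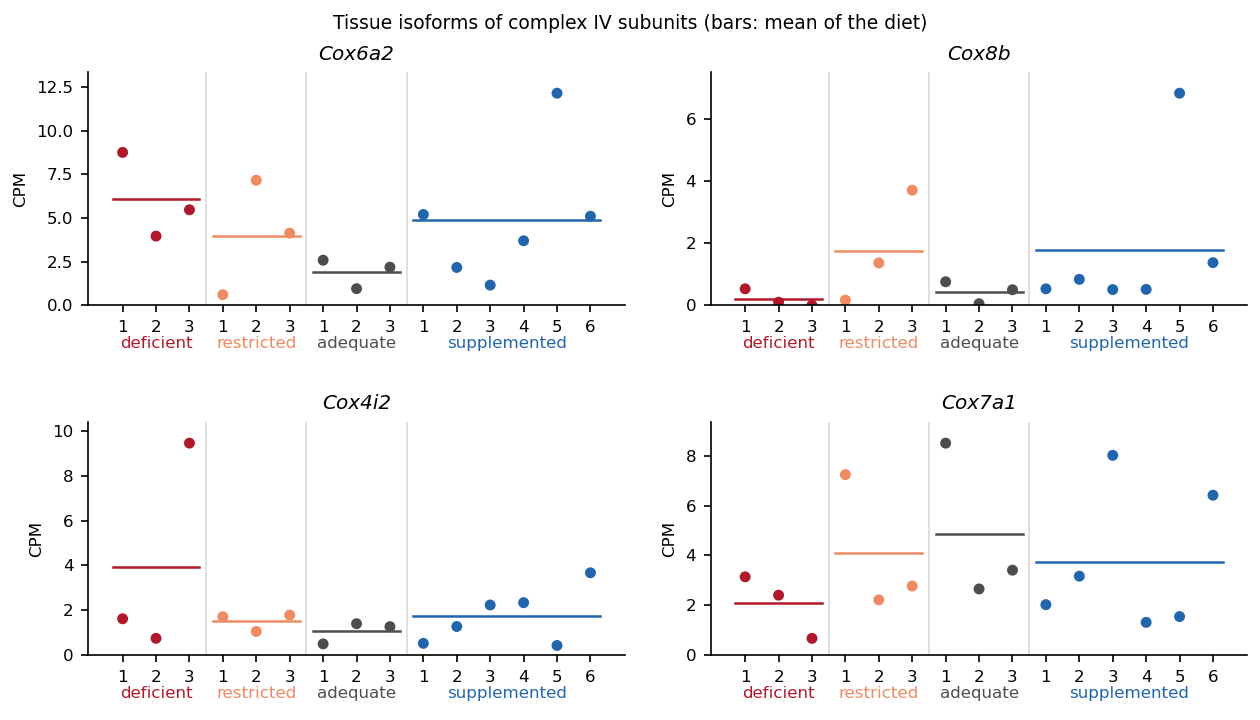
CPM of 4 tissue isoforms of complex IV in each library by diet, with bars for the mean of each diet. Cox6a2 and Cox8b are highest in supplemented replicate 5 (12.1 and 6.82 CPM), and Cox4i2 is highest in deficient replicate 3 (9.46 CPM).

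Cox4i2 had 1.62, 0.752 and 9.46 CPM in deficient libraries, 1.71, 1.06 and 1.79 CPM in restricted libraries, 0.504, 1.40 and 1.27 CPM in adequate libraries, and 0.434 to 3.67 CPM in supplemented libraries. Deficient replicate 3, the library with the highest alveolar and endothelial marker sums, stood alone, and the log2 fold change of 1.88 in deficient over adequate (SE 0.92, edgeR adjusted p = 0.348) was 0.16 without it. Cox6a2 had 8.76, 3.96 and 5.47 CPM in deficient libraries, against 2.58, 0.953 and 2.18 CPM in adequate libraries. It had 0.608, 7.16 and 4.13 CPM in restricted libraries and 1.16 to 12.1 CPM with a median of 4.40 CPM in supplemented libraries. The deficient libraries were above the adequate ones, and the log2 fold change was 1.67 (SE 0.82, edgeR adjusted p = 0.346), not called.

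Cox8b had 0.530, 0.100 and 0 CPM in deficient libraries, 0.166, 1.36 and 3.70 CPM in restricted libraries, 0.756, 0.0501 and 0.500 CPM in adequate libraries, and 0.505 to 6.82 CPM in supplemented libraries. Supplemented replicate 5 was highest for both Cox8b and Cox6a2. The muscle markers, a list of 20, summed to 1956 CPM there, with 845 CPM of Acta1 and 173 CPM of Myh4. Over the diets their sums were 4.51 to 33.2 CPM in deficient, 10.5 to 47.8 CPM in restricted, 9.58 to 29.7 CPM in adequate and 3.84 to 1956 CPM in supplemented libraries. All 20 had counts in the supplemented group, while 13, 14 and 17 had counts in the deficient, restricted and adequate groups, with Pvalb and Myl1 at 0 in each of those 3. Cox7a1 was at 1.55 CPM in supplemented replicate 5, within the range of 1.32 to 8.01 CPM of the other supplemented libraries. The part of muscle RNA in the isoform levels was not tested.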

How the data were processed

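RNA-seq libraries of metastatic tissue were made from total RNA after ribosomal RNA removal, and the kit marks strand, per the labels' protocols. The authors deposited, for each of the 15 libraries, expected counts (RSEM's estimate of the reads of each gene) and TPM, which RSEM scales by gene length and library. The submitters' processing notes name Bowtie2 2.2.9, RSEM 1.30, edgeR and genome build NCBIM37. The sources used here do not give the annotation release or the strand setting of the counting. Since the genome at hand is GRCm38, only the sequences carry coordinates, from RefSeq GRCm38.p6 promoters and GENCODE M21.

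Expected counts were rounded to whole numbers. Genes were filtered with edgeR's filterByExpr (16001 kept), scaled by TMM, and tested with edgeR's quasi-likelihood test (edgeR 4.0.16, R 4.3.3) in a single fit of a mean per diet over all 15 libraries, with 11 residual degrees of freedom and a common biological coefficient of variation of 0.46. The fit gave 6 pairs of diets and a joint test, adjusted by Benjamini-Hochberg over all genes at 0.05. CPM are on the TMM scale, with a prior count of 2 before taking log2. DESeq2 1.42.0, limma-voom and limma on log2(TPM + 1) (limma 3.58.1) were run beside it, among 25 other settings that changed scaling, filter, libraries or covariates. The scripts were tested on simulated data. Tables and figures used Python 3.11.15, pandas 2.3.3 and matplotlib 3.10.9.

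Precision is limited by the number of libraries, 3 in each diet but the supplemented one, with 6, and for low genes by depth. Members, gene lists and the libraries left out were chosen with earlier results of these data known. Named genes were Ndufa8, Ndufa4 and Cox7c, the mitochondrial genes, the tissue isoforms and their partners, the highest and lowest of each complex in TPM, the nuclear members with the 6 largest and 6 smallest standard deviations, and up to 5 members with the smallest p in each comparison. Atp5g1, Ndufv1, Atp5j2 and Cyc1 were named outside that rule, with their values seen. All sample columns of the tables were mapped to a library.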

Additional observations from a re-analysis of the deposited data

Results flagged for a closer look

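In the supplemented group, the diet with enough libraries (n = 6) for a check of the highest and lowest library against the others, 14 of 72 values had a library far from the other 5. Chance gives such a gap in about 1 in 20 groups, and these values share libraries and genes.

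Most of them were in supplemented replicate 5, the library with the high muscle marker sum. Its mean log2 CPM of the mitochondrial genes was 6.38, against 7.68 to 8.13 in the other 5. By complex the mitochondrial means were 5.32 in complex I (6.70 to 7.26 in the others), 9.41 in complex IV (10.47 to 10.9) and 5.32 in complex V (6.77 to 7.08). The mitochondrial minus the nuclear mean log2 CPM was 0.41 there, against 1.88 to 2.41, and mitochondrial genes made up 22.4% of respiratory chain TPM, against 40.3% to 48.2%. Single genes that were low there were mt-Atp8 with 10.8 CPM (31.8 to 38.0 CPM in the others), mt-Co3 with 908 CPM (1687 to 2039 CPM) and mt-Nd4l with 5.21 CPM (22.6 to 31.9 CPM). The muscle isoforms Cox6a2, with 12.1 CPM (1.16 to 5.20 CPM in the others), and Cox8b, with 6.82 CPM (0.505 to 1.37 CPM), were high there.

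Supplemented replicate 2 held the other values. Atp5mpl was low with 18.1 CPM, against 24.4 to 26.9 CPM. Cox6b2 and Cox7b2, known from testis, had 1.11 CPM (0 to 0.0881 CPM in the others) and 0.389 CPM (0 to 0.0366 CPM), and neither passed the filter on low counts.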

How the results depend on the processing

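Of the counts of calls and group medians under 25 other settings, 459 stayed close to the reported value and 15 did not, and edgeR called 0 members in every edgeR setting. The 459 include such counts of 0, and medians that moved. Without adequate replicate 1 the mitochondrial medians changed sign, to -0.11 in restricted and -0.13 in supplemented over adequate. Without deficient replicate 3 they were -0.57 in deficient over adequate and -0.66 in deficient over restricted. The 459 therefore do not show that the mitochondrial medians were stable. DESeq2 called 7 members in deficient over adequate, 1 in supplemented over adequate and 2 in the joint test. Leaving out each library in turn, the nuclear median log2 fold change ranged from -0.61 to -0.20 in deficient over adequate, from -0.45 to -0.012 in restricted over adequate and from -0.51 to -0.095 in supplemented over adequate, each smallest in size without adequate replicate 1. Without that library, supplemented replicate 5 and deficient replicate 3 together, the nuclear medians over adequate were -0.049 (deficient), -0.015 (restricted) and -0.11 (supplemented), and the mitochondrial medians were -0.78 in deficient over adequate and -0.84 in deficient over supplemented. On the log2(TPM + 1) scale, where the median of all genes over adequate was 0.26, 0.26 and 0.36, the nuclear medians were 0.010, 0.22 and 0.29, and the mitochondrial median in supplemented over adequate was 0.74. On that scale Ndufa8 had 0.13 in restricted over adequate and 0.16 in supplemented over adequate, and Atp5h had 0.031 in supplemented over adequate, each on the other side of 0 from the value on counts. The cause of these shifts was not tested. The fold changes followed in this way were those of up to 5 members with the smallest p in each comparison. No mitochondrial gene was among them, nor were Cox4i2, Cox6a2 and Cox7c, so the counts do not cover all named genes. Of the other fold changes followed, 740 kept their direction and their side of the threshold and 6 passed it with DESeq2, but sizes moved. Leaving out each library in turn, Uqcrh ranged from -1.24 to -0.48 in deficient over adequate and from -0.87 to -0.12 in restricted over adequate, and Cox8b from -4.84 to -1.76 in deficient over restricted. Leaving out unnamed IDs and short RNA genes before scaling, chosen after seeing the data, gave nuclear medians of -0.47, -0.29 and -0.37 over adequate and 0 calls by edgeR. With 3 libraries in most diets, a single library set the size of several values, and members under about 1 CPM rest on few counts. A fit of only the 2 diets compared gives no joint test. No paired analysis was possible because the labels give no replicate numbers, and numbers given in accession order pair nothing.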
